A study of Canis lupus familiaris with 6 samples.

Results

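The genes described are those of the proteasome: every gene whose symbol in the deposited table starts with PSMA, PSMB, PSMC, PSMD, PSME or PSMG, apart from PSMB8, PSMB9 and PSMB10. The rule found 39 of the 31512 genes in the table. Of these, 6 belong to the alpha ring and 7 to the beta ring of the core, 4 are ATPases and 3 are other subunits of the base, 7 form the lid, 4 are activators, 4 are chaperones of core assembly, 2 are chaperones of base assembly, and 2 share the letters of the name without being proteasome subunits (PSMC3IP and PSME3IP1). Whole blood was sampled on day 30 from 3 control dogs and 3 CPP-Se dogs, with 1 RNA-seq library per dog. All were healthy Beagles of 1.5 years on the same maintenance food. Each dog was given 30 g of a snack, which held no supplement for the control group and 0.03% CPP-Se, a chelate of selenium with phosphopeptides from milk casein, for the CPP-Se group. The design asks which blood transcripts differ after the supplement, and here that question is put to the machinery that degrades proteins.

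The proteasome is the large protease that breaks down proteins tagged with ubiquitin in the cytosol and nucleus. Its barrel-shaped core, the 20S particle, has outer rings of alpha subunits that guard the entrance and inner rings of beta subunits, of which PSMB5, PSMB6 and PSMB7 carry the active sites. The 19S cap holds a ring of ATPases that unfolds substrates and a lid that removes ubiquitin, and immune cells can exchange the active beta subunits for PSMB8, PSMB9 and PSMB10, which favours peptides for antigen presentation.

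In these 6 dogs, no proteasome gene passed the test between the groups. After testing in limma, 0 of the 37 members with a mean of at least 1 FPKM were DEGs. A DEG needed a fold of 1.5 or more and an adjusted p under 0.05, and 0.0305% of all 9847 genes tested were called. This fit called few genes of any kind, so a count of 0 among 37 tells little about the members. The paper, which used DESeq2 with the same limits, reported many more DEGs. FPKM count the fragments on a gene relative to its length and to a library size, and the fit used log2(FPKM + 1). The library size implied by the deposited FPKM was not the count of reads on genes, as given below. Scaling by the median of ratios changed the deposited FPKM little, with factors between 0.995 and 1.02 in the 6 dogs. An unadjusted p under 0.05 was reached by 0 members as higher and 0 as lower in the CPP-Se group, against 6.87% and 9.1% of all genes tested. The lowest p among the members was 0.0585 (PSMD8, adjusted p = 0.336). A negative binomial model of the reads behind the FPKM also called 0 members, at an unadjusted p under 0.05 or past the DEG thresholds, whereas 16.7% and 3.99% of all genes tested met these limits in that model. A p above the threshold does not show equal levels, so the 95% intervals are given too. For 12 of the 37 members, the whole interval of the fold change lay within 1.5-fold in either direction, which was the case for 11.5% of all genes tested. The members were more abundant than the genes tested at large, with a median of the mean levels of 11.7 FPKM beside 5.11 FPKM, and their median SE was 0.21 beside 0.25.

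The median log2 fold change (CPP-Se minus control) of the 37 members was 0.06, beside -0.0043 for all genes tested, with 20 members above 0 and 17 below. The members lay between -0.58 (PSMD8) and 0.49 (PSMB6). The signs depended on how the libraries were scaled: with a common sum of FPKM, the median of all genes tested rose to 0.13 and that of the members to 0.21, and 34 of 37 members were above 0, while 23 of 37 were above the median of all genes. The FPKM ranges of the groups did not overlap for 2 members that were higher in the CPP-Se dogs (PSMB4 and PSMB6) and 2 that were lower (PSMD8 and PSME3IP1). Among all genes tested, 10.4% were higher and 12.6% lower without overlap. With a common sum of FPKM, or with reads on genes as library size, PSMB4, PSMB6 and PSME3IP1 overlapped, and PSMC4, PSMD9 and PSMD14 (higher) stood beside PSMD8 (lower) as the members without overlap, where 13.8% and 12.6% of all genes tested did not overlap in either direction.

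**Figure D1:**
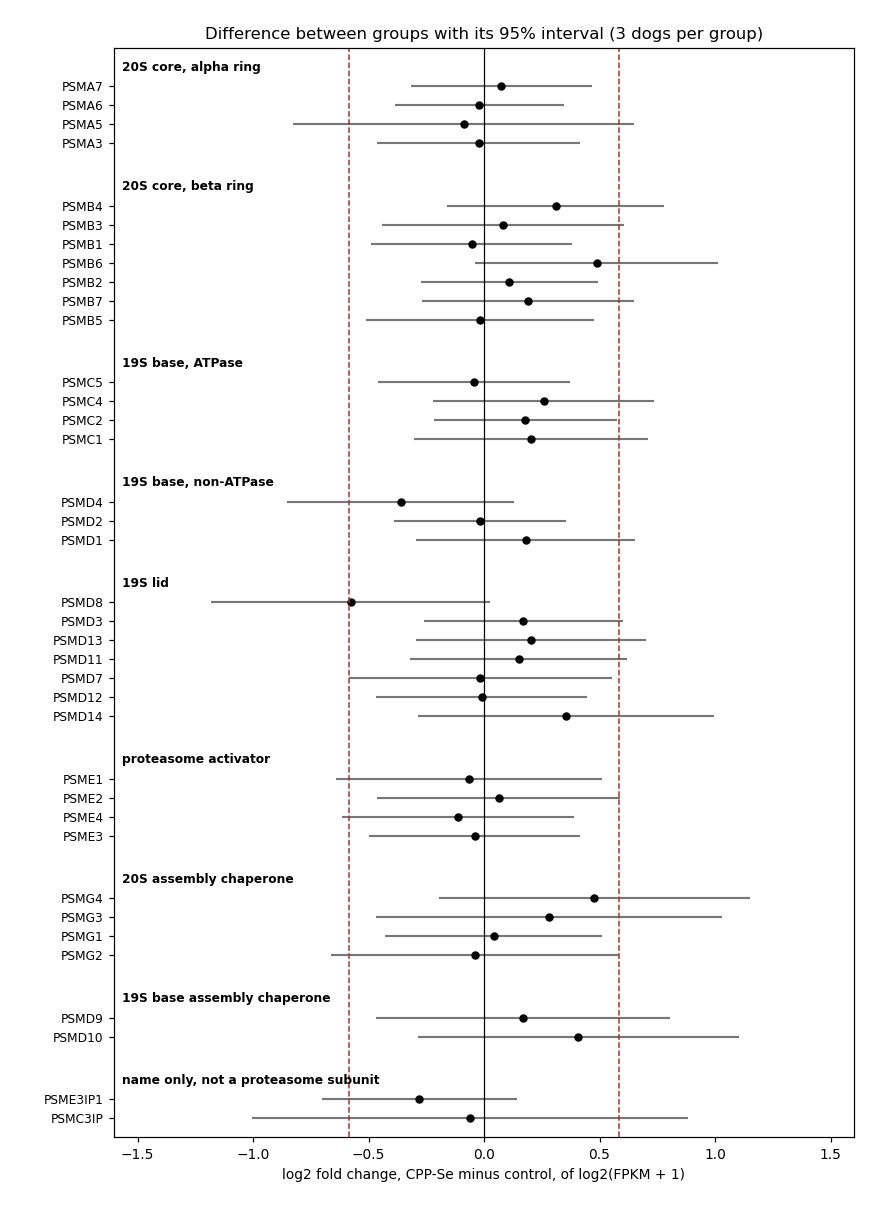
Log2 fold change (x axis, CPP-Se minus control, on the log2(FPKM + 1) scale) of the 37 members tested, by functional group (y axis). Points are the estimates, bars the 95% intervals from limma with 3 dogs per group, and dashed lines a fold of 1.5 in either direction. Every bar crosses 0, and PSMD8 and PSMB6 have the intervals that cross it least.

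The libraries held between 6598173 and 8067034 reads on genes, of which 5674 to 10055 lay on the members. That is between 0.179% and 0.197% of the reads outside hemoglobin genes. CPP-Se replicate 2 stood apart: 8 hemoglobin genes took 36.6% of its reads, whereas they took 48.7% to 55.9% elsewhere. The library size that its FPKM imply was 1.65 times its reads on genes, beside 0.882 to 1.05 times in the other dogs. The members thus took the highest share of reads on genes in this dog, 0.125% against 0.0818% to 0.0952%, while their summed FPKM of 583 was the lowest of the dogs, so its low FPKM hold on the deposited scale. Hemoglobin transcripts and most markers of blood cells were present under the tissue label, although MPO and CD72 were listed at 0 in at least 1 dog and 8 marker symbols of the lists were not found in the table. Markers of monocytes (9 of 10 found, CD14 not) summed to 859 to 1006 FPKM in the control dogs and 413 to 481 FPKM in the CPP-Se dogs, and 8 of the 9 tested were lower at an unadjusted p under 0.05. Markers of B cells summed to 273 to 393 FPKM and 415 to 459 FPKM, and those of NK and cytotoxic cells to 30.5 to 46.9 FPKM and 60.1 to 92.0 FPKM. Markers of T cells summed to 1033 to 1358 FPKM and 873 to 1005 FPKM, although 9 of the 11 had a fold change above 0 and 5 were higher (1 lower) at an unadjusted p under 0.05. The sums of neutrophil, red cell and platelet markers overlapped between the groups, yet 4 of 8 neutrophil markers were lower (median log2 fold change -0.71) and 3 of 12 red cell markers higher at an unadjusted p under 0.05. Their part in the results given here was not tested. In RNA from whole blood, fewer cells of a type and less RNA per cell cannot be told apart.

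The 20S core was the most abundant part. Its 11 members tested summed to 272 to 309 FPKM in the control dogs and to 290 to 386 FPKM in the CPP-Se dogs. Most of this came from the beta ring, at 218 to 252 FPKM in the control dogs and 326, 249 and 231 FPKM in CPP-Se replicates 1, 2 and 3. Only CPP-Se replicate 1 lay above the control range.

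PSMB4, a beta subunit without an active site, had the highest mean of all members, 67.0 FPKM. It stood at 64.0, 55.8 and 58.3 FPKM in the control dogs and 92.5, 66.8 and 64.8 FPKM in the CPP-Se dogs. Each CPP-Se dog was above each control dog, but CPP-Se replicates 2 and 3 exceeded the highest control dog by little, and the log2 fold change of 0.31 (SE 0.20) had an adjusted p of 0.503. It was 0.15 without CPP-Se replicate 1, 0.40 without CPP-Se replicate 3 and 0.46 with a common sum of FPKM.

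PSMB6, the subunit with the caspase-like active site, showed the largest change in the beta ring. It stood at 26.7, 24.2 and 23.0 FPKM in the control dogs and 47.4, 31.7 and 28.2 FPKM in the CPP-Se dogs, from 126 to 345 reads per library. The CPP-Se dogs lay above all control dogs, with group means of 35.8 ± 10.2 and 24.6 ± 1.90 FPKM (SD, n = 3 each). The log2 fold change was 0.49 (SE 0.23, 95% interval -0.04 to 1.01), with an unadjusted p of 0.0644 and an adjusted p of 0.346 in limma. It was 0.27 without CPP-Se replicate 1 and 0.64 without CPP-Se replicate 3. PSMB6 (chromosome 5, 31776293 to 31778682 in the dog genome of Ensembl release 100) lies wholly within the annotated span of ENO3 on the same strand, whose mean was 1.85 FPKM.

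The other subunits with active sites differed less. PSMB5, which carries the chymotrypsin-like site, stood at 17.4, 19.4 and 15.9 FPKM in the control dogs and 22.3, 16.8 and 13.8 FPKM in the CPP-Se dogs. The CPP-Se dogs thus held both the highest and the lowest value, and the log2 fold change was -0.02 (95% interval -0.51 to 0.48). PSMB5 lies within the span of LRP10 on the opposite strand (mean 143 FPKM), and the use of strand in counting is not given in the sources used here. PSMB7, with the trypsin-like site, stood at 20.4, 21.2 and 16.1 FPKM in the control dogs and 25.3, 18.5 and 22.5 FPKM in the CPP-Se dogs, with overlapping groups and a log2 fold change of 0.19 (95% interval -0.27 to 0.65). With a dog left out, it ran from 0.073 (without control replicate 3) to 0.31 (without CPP-Se replicate 2), and it was 0.090 without CPP-Se replicate 1. With a common sum of FPKM it was 0.34. PSMB1, PSMB2 and PSMB3, the remaining beta subunits, had means of 34.7, 23.0 and 58.3 FPKM and log2 fold changes of -0.05, 0.11 and 0.08. Over 20 alternative settings of scaling, filter, model or left-out dog, PSMB1 ran from -0.16 to 0.10, PSMB2 from 0.037 to 0.26 and PSMB3 from -0.095 to 0.24, so the signs of PSMB1 and PSMB3 were not fixed. PSMB2 varied least in the ring, with a coefficient of variation of 8.12% over the 6 dogs.

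The beta subunits tended to be high in the same dog. CPP-Se replicate 1 had the highest FPKM of the 6 dogs for 6 of the 7 subunits, the exception being PSMB2. In this dog, all 7 were above their own mean over the dogs, although PSMB2 was nearly equal to it (22.96 beside 22.95 FPKM). For all genes tested, this dog held the highest value in 23.9% and lay above the gene's mean in 50.7%. Over the 6 dogs, the median Pearson correlation between pairs of beta subunits was 0.55, with 18 of 21 pairs above 0. Without CPP-Se replicate 1, it was 0.17, with 12 of 21 pairs above 0. For all 666 pairs of members, the median was 0.07, and for 1999000 pairs of genes drawn evenly over the levels it was 0.0010. These correlations are descriptions over 6 libraries of 2 groups, which share their scaling.

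**Figure D2:**
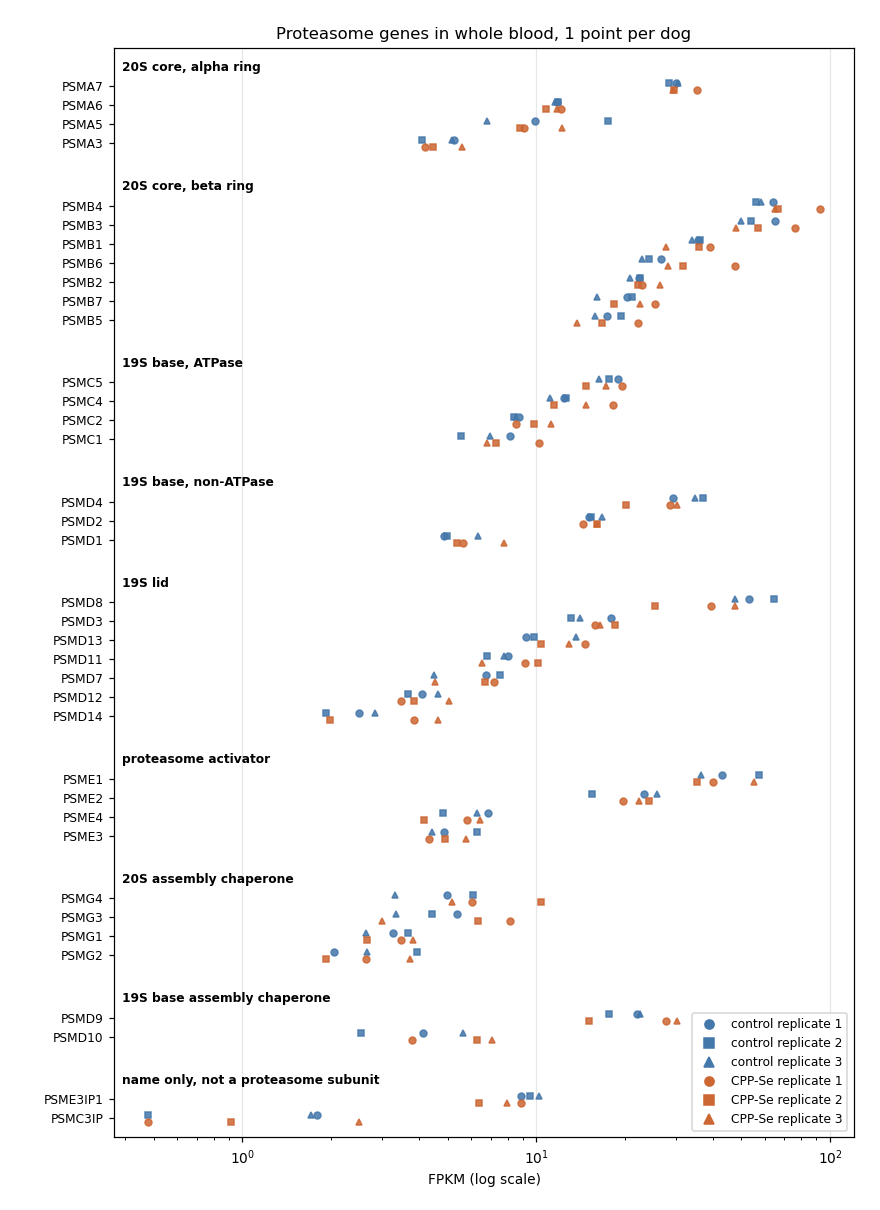
FPKM (x axis, log scale) of the 37 members tested, by functional group (y axis), with 1 point per dog. Control dogs are drawn above CPP-Se dogs for each gene. PSMB4 and PSMB6 have all 3 CPP-Se dogs above the control dogs, and most other genes mix the groups.

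The alpha ring was measured for 4 of its 6 members in the table, since PSMA4 and PSMA8, a form known from the testis, were listed at 0 in all dogs. The row named PSMA4 lies on chromosome X, and whether it is the expressed copy of this constitutive subunit is not known here, so its 0 is not read as absence. PSMA7, the most abundant alpha subunit, stood at 29.9, 28.4 and 30.5 FPKM in the control dogs and 35.3, 29.4 and 29.2 FPKM in the CPP-Se dogs. The values overlapped, and the log2 fold change was 0.07 (95% interval -0.32 to 0.47). PSMA6 was the steadiest of all members, between 10.8 and 12.1 FPKM in the 6 dogs (coefficient of variation 3.84%), and its log2 fold change of -0.02 had an interval of -0.39 to 0.34. PSMA5 varied most in the ring, at 9.93, 17.5 and 6.80 FPKM in the control dogs and 9.10, 8.83 and 12.2 FPKM in the CPP-Se dogs. The control dogs spanned the CPP-Se dogs on both sides, with a log2 fold change of -0.09 (SE 0.32). PSMA3 had a mean of 4.80 FPKM and a log2 fold change of -0.02.

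The 4 ATPases of the base had means between 7.50 and 17.5 FPKM, within 2.33-fold of each other. PSMC5 was the most abundant, at 19.003, 17.7 and 16.4 FPKM in the control dogs and 19.7, 14.8 and 17.3 FPKM in the CPP-Se dogs. Its groups overlapped (log2 fold change -0.05, 95% interval -0.46 to 0.37). PSMC4 showed the largest difference, at 12.5, 12.7 and 11.1 FPKM in the control dogs and 18.3, 11.5 and 14.8 FPKM in the CPP-Se dogs. CPP-Se replicate 2 lay among the control dogs, and the log2 fold change of 0.26 (SE 0.21) had an adjusted p of 0.584. It was 0.11 without CPP-Se replicate 1 and 0.42 without CPP-Se replicate 2. PSMC1 and PSMC2 had log2 fold changes of 0.20 and 0.18, which ran from 0.042 to 0.34 and from 0.092 to 0.32 over the 20 alternatives. As a group, 3 of 4 ATPases were above 0, and CPP-Se replicate 1 was the highest dog for 3 of them.

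Of the other base subunits, PSMD4, a receptor for ubiquitin chains, was the most abundant. It stood at 29.3, 37.0 and 34.7 FPKM in the control dogs and 28.5, 20.2 and 30.1 FPKM in the CPP-Se dogs. On this scale CPP-Se replicate 2 was below the other dogs, and CPP-Se replicate 3 lay within the control range. The log2 fold change was -0.36 (SE 0.21, adjusted p = 0.451 in limma). It was -0.19 without CPP-Se replicate 2, -0.22 with reads on genes as library size and -0.47 without CPP-Se replicate 3. PSMD1 and PSMD2, the scaffold subunits of the base, had means of 5.83 and 15.7 FPKM and log2 fold changes of 0.18 and -0.02, which ran from 0.034 to 0.31 and from -0.044 to 0.13 over the alternatives. PSMD2 was among the steadiest members, with a coefficient of variation of 5.32%.

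The lid held the lowest p of the members. PSMD8, a structural lid subunit, stood at 53.0, 64.3 and 47.5 FPKM in the control dogs and 39.3, 25.4 and 47.5 FPKM in the CPP-Se dogs. The groups were separated by less than 0.1 FPKM, since control replicate 3 had 47.51 FPKM and CPP-Se replicate 3 had 47.45 FPKM, and they overlapped when the libraries were scaled by the median of ratios. The group means were 55.0 ± 8.57 and 37.4 ± 11.2 FPKM (SD, n = 3 each), with a log2 fold change of -0.58 (SE 0.26, 95% interval -1.18 to 0.03, adjusted p = 0.336). The lowest value was that of CPP-Se replicate 2, the library with the lowest share of hemoglobin reads. Without that dog the log2 fold change was -0.33, and without CPP-Se replicate 3 it was -0.77. These were the ends of its range over the 20 alternatives. The annotated span of PSMD8 overlaps other genes: its model of 4425 bases on chromosome 1 (114607058 to 114685985) covers YIF1B (33.4 FPKM) and GGN on the opposite strand and KCNK6 (4.70 FPKM) and CATSPERG on the same strand. How reads on the shared bases were assigned is not given in the sources used here.

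The other lid subunits were lower in level and overlapped between the groups. PSMD3, PSMD7, PSMD11, PSMD12, PSMD13 and PSMD14 had means from 2.96 FPKM (PSMD14, the deubiquitinase of the lid) to 16.0 FPKM (PSMD3). Their log2 fold changes ran from -0.02 (PSMD7) to 0.35 (PSMD14). That of PSMD14 was 0.62 without CPP-Se replicate 2 (unadjusted p = 0.0343, adjusted p = 0.282 by limma) and lay between 0.16 and 0.62 over the 20 alternative settings, while PSMD3 ran from 0.059 to 0.32, PSMD11 from 0.033 to 0.32 and PSMD13 from 0.10 to 0.36. PSMD14 rested on 13 to 30 reads per library, and its interval of -0.29 to 0.99 was the widest in the lid. PSMD12 was the only lid subunit whose interval stayed within 1.5-fold.

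**Figure D3:**
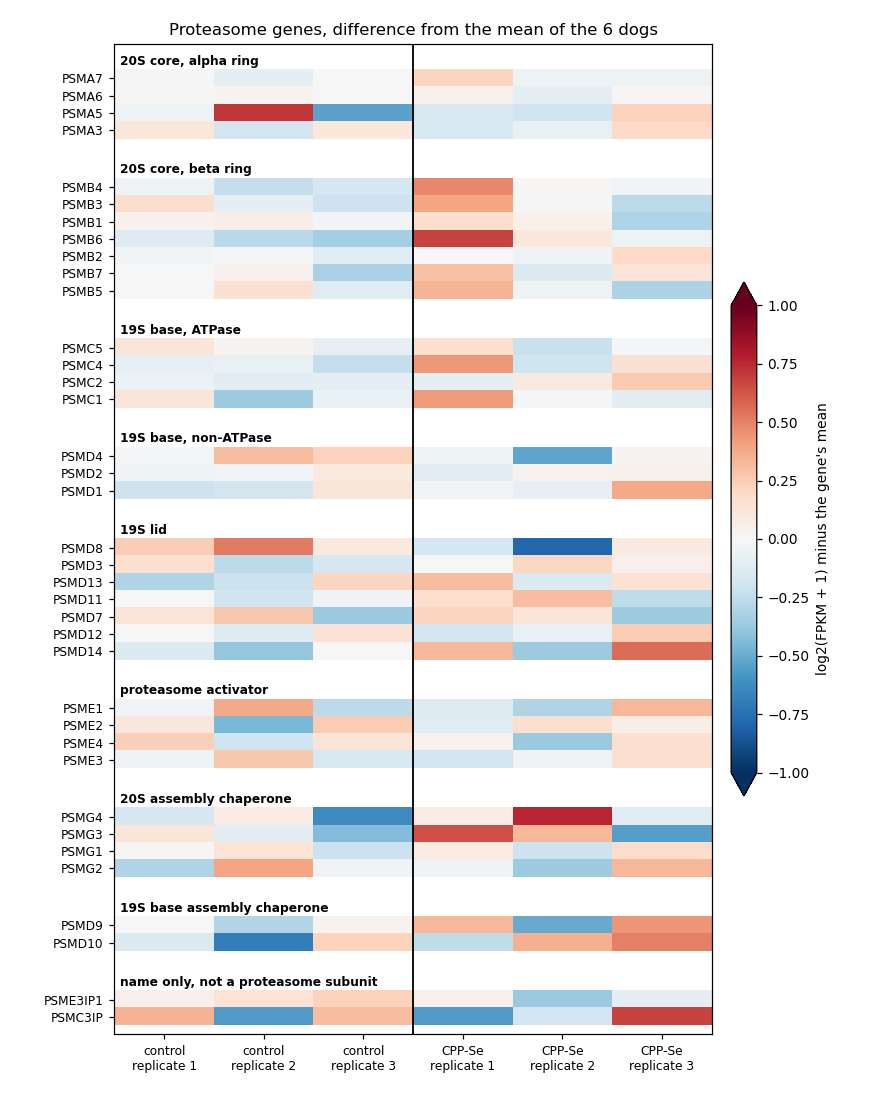
Difference of log2(FPKM + 1) from the gene's mean over the 6 dogs (colour, red above and blue below) for the 37 members tested (rows, by functional group) in each dog (columns, control dogs on the left). The beta ring apart from PSMB2 is red in CPP-Se replicate 1, and PSMD8 and PSMD4 are darkest blue in CPP-Se replicate 2.

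Activators bind the ends of the core and open its gate. PSME1 and PSME2, which together form the PA28 complex induced by interferon gamma, are neighbours on chromosome 8. PSME1 stood at 43.1, 57.4 and 36.4 FPKM in the control dogs and 40.1, 35.3 and 55.3 FPKM in the CPP-Se dogs. PSME2 stood at 23.3, 15.4 and 25.9 FPKM in the control dogs and 19.8, 24.2 and 22.5 FPKM in the CPP-Se dogs. Both genes overlapped between the groups, with log2 fold changes of -0.07 (95% interval -0.64 to 0.51) and 0.06 (95% interval -0.46 to 0.59). Their values did not follow each other, as control replicate 2 had the highest PSME1 and the lowest PSME2. PSME4, which encodes the activator PA200, stood at 6.84, 4.81 and 6.29 FPKM in the control dogs and 5.84, 4.16 and 6.45 FPKM in the CPP-Se dogs, again with overlap (log2 fold change -0.11, SE 0.22). PSME3, the nuclear activator, had a mean of 5.09 FPKM and a log2 fold change of -0.04. PSME3 and PSME4 overlap other genes in the annotation (BECN1 and AOC3, and ASB3).

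The chaperones that assemble the core had means between 2.82 and 5.997 FPKM, and most of them varied widely between dogs. PSMG4, with a gene length of 412 bases and 11 to 57 reads per library, stood at 4.98, 6.09 and 3.32 FPKM in the control dogs and 6.07, 10.4 and 5.16 FPKM in the CPP-Se dogs. Only CPP-Se replicate 2 lay above the control range, and the log2 fold change of 0.48 (SE 0.29) had an interval of -0.20 to 1.15. It was 0.22 without that dog and 0.28 without control replicate 3. PSMG1, PSMG2 and PSMG3 had log2 fold changes of 0.04, -0.04 and 0.28. That of PSMG3 was 0.63 without CPP-Se replicate 3 (unadjusted p = 0.0384, adjusted p = 0.275 by limma) and lay between 0.029 and 0.63 over the alternatives. The median coefficient of variation of the 4 chaperones was 33.9%, beside 15.4% in the core and 19.01% in the 14 cap subunits.

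The chaperones of the base are PSMD9 and PSMD10. PSMD9 stood at 22.0, 17.7 and 22.5 FPKM in the control dogs and 27.7, 15.2 and 30.1 FPKM in the CPP-Se dogs. CPP-Se replicate 2 was the lowest dog and CPP-Se replicates 1 and 3 the highest, so the log2 fold change of 0.17 had an interval of -0.47 to 0.81. PSMD10, known as gankyrin, stood at 4.14, 2.53 and 5.64 FPKM in the control dogs and 3.78, 6.27 and 7.08 FPKM in the CPP-Se dogs. Its groups overlapped (log2 fold change 0.41, SE 0.30, adjusted p = 0.551), and with a dog left out the value ran from 0.17 (without control replicate 2) to 0.64 (without CPP-Se replicate 1).

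The pair of genes that share only the name behaved differently in level. PSME3IP1, a partner of PSME3, stood at 8.91, 9.53 and 10.2 FPKM in the control dogs and 8.91, 6.39 and 7.95 FPKM in the CPP-Se dogs, where the highest CPP-Se dog and the lowest control dog were equal to 3 digits. The log2 fold change was -0.28 (SE 0.18, adjusted p = 0.503 in limma). It was -0.16 without CPP-Se replicate 2, -0.14 with a common sum of FPKM and -0.37 without CPP-Se replicate 1. PSMC3IP, a factor of meiotic recombination, had a mean of 1.31 FPKM from 2 to 10 reads per library. Without this pair, the median log2 fold change of the other 35 members tested was 0.07.

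Ranked by mean FPKM, the members ran from PSMB4, PSMB3, PSMD8 and PSME1 at the top to PSMD14, PSMG2 and PSMC3IP at the bottom. In 36 of the 36 neighbouring pairs of this order, the ranges over the 6 dogs overlapped, so no neighbours were separated beyond the spread between dogs. Subunits that occur in equal number in the particle differed in transcript level per length: the beta ring spanned 3.81-fold between PSMB4 and PSMB5, and the lid 15.6-fold between PSMD8 and PSMD14.

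Some subunits have no named row. The symbols PSMA1, PSMA2, PSMC3, PSMC6, PSMD5, PSMD6 and PSMB11 were not found among the gene names. The table has 31 rows without a gene name that are described as proteasome subunits, of which 13 were at 0 in all dogs and 10 were tested. The most abundant was ENSCAFG00000008701, described as protease regulatory subunit 6A (the product of PSMC3), with a mean of 13.3 FPKM and a log2 fold change of -0.21 (SE 0.26). Among the rows tested, 0 were DEGs and 0 had an unadjusted p under 0.05 in limma. Their median log2 fold change was 0.26, with 8 of the 10 above 0. The largest, 1.14, belonged to a row described as beta type-3 with 0 to 11 reads per library. ENSCAFG00000041100, described as regulatory subunit 10B (the product of PSMC6), was higher without overlap (log2 fold change 0.54, SE 0.24, unadjusted p = 0.0555 in limma). It rested on 20 to 52 reads per library. Of the tested rows, 3 are described as alpha type-1 and 1 as beta type-3, like PSMB3. ENSCAFG00000001959, an alpha type-1 row, is annotated as a pseudogene. Whether these rows share reads with the named genes was not examined, and how shared reads were counted is not given in the sources used here, so the levels of these genes and of PSMB3 are uncertain.

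The immune forms of the active subunits were compared with the constitutive forms they replace, as a ratio within each dog that no scaling between dogs can change. PSMB8 was not found among the gene names, so 2 ratios were compared. The ratio of PSMB9 to PSMB6 was 2.19, 1.52 and 2.80 in control replicates 1, 2 and 3, and the CPP-Se dogs had ratios of 3.71, 3.05 and 0.808. The CPP-Se dogs held the highest values and the lowest, and the mean log2 ratio was 1.08 ± 0.44 and 1.06 ± 1.196 (SD, n = 3 each; difference -0.01, exact permutation test, two-sided, p = 1.0). The difference moved widely with single dogs, from -0.43 without CPP-Se replicate 1 to 0.67 without CPP-Se replicate 3. The spread came from PSMB9, at 58.6, 36.9 and 64.4 FPKM in the control dogs and 176, 96.5 and 22.8 FPKM in the CPP-Se dogs. The ratio of PSMB10 to PSMB7 was 1.68, 1.31 and 1.51 in control replicates 1, 2 and 3, and the CPP-Se dogs overlapped them with 1.86, 1.83 and 1.39 (log2 difference 0.17, exact permutation test, two-sided, p = 0.3, adjusted over both ratios 0.6). With 3 dogs against 3, this test cannot go below 0.1.

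**Figure D4:**
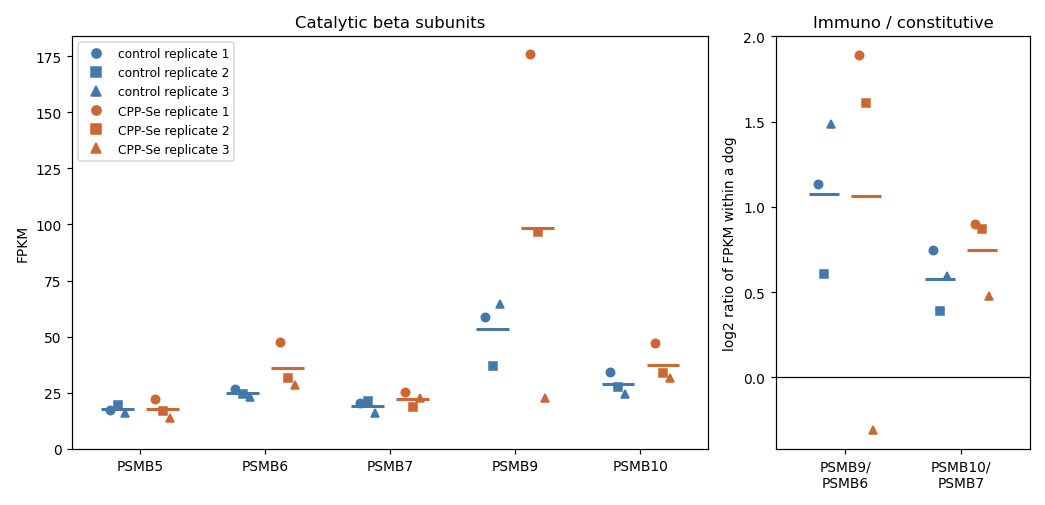
Left, FPKM (y axis) of the constitutive active subunits PSMB5, PSMB6 and PSMB7 and of the immune forms PSMB9 and PSMB10. Right, log2 of the ratio of immune to constitutive form within each dog (y axis). Points are dogs and horizontal bars are means of 3 dogs. PSMB9 ranges from 22.8 to 176 FPKM among the CPP-Se dogs, while PSMB5 stays between 13.8 and 22.3 FPKM in all dogs.

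Other genes of the pathway were taken from lists of known partners. Of 9 partners and further parts of the proteasome tested, 0 were DEGs in limma or in the negative binomial model. The 9 included the ubiquitin receptor ADRM1, the deubiquitinases USP14 and UCHL5 and the inhibitor PSMF1. An unadjusted p under 0.05 in limma was reached by 0 of them, against 16.0% of all genes tested. Their median log2 fold change was -0.20. Of 12 genes of ubiquitin, its activating enzymes and substrate shuttles, limma called 0 as DEGs. It called 1 as lower at an unadjusted p under 0.05, against 9.1% of all genes tested. The gene was UFD1, a cofactor of the segregase VCP, at 31.3, 33.0 and 28.0 FPKM in the control dogs and 15.7, 15.0 and 19.2 FPKM in the CPP-Se dogs. Its groups did not overlap, where 12.6% of all genes tested were lower without overlap, and the call depended on the test. The log2 fold change was -0.85 (SE 0.18) with an adjusted p of 0.138 in limma. In the negative binomial model it was -0.89 with an adjusted p of 0.00414, past the DEG thresholds. UFD1 was the only gene of this list that the model called, beside 3.99% of all genes tested.

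Of 7 regulators of proteasome gene transcription tested, 0 were DEGs in limma or in the negative binomial model. At an unadjusted p under 0.05 in limma, 2 were lower, against 9.1% of all genes tested. NFE2L1, which drives new synthesis of subunits when the proteasome is inhibited, had a log2 fold change of 0.24 (SE 0.19) with overlap. NFE2L2, the regulator of the response to oxidants, stood at 24.8, 25.5 and 23.6 FPKM in the control dogs and 9.60, 17.4 and 14.2 FPKM in the CPP-Se dogs. All CPP-Se dogs were below the control dogs, as they were for 12.6% of all genes tested. The log2 fold change was -0.83 (SE 0.23), with an unadjusted p of 0.00701 and an adjusted p of 0.183 in limma. The adjusted p was 0.0507 in the negative binomial model. MAFF, a partner of these factors in DNA binding, had a log2 fold change of -1.01 (SE 0.30, adjusted p = 0.197 in limma). It rested on 7 to 23 reads per library at a mean of 2.79 FPKM.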

How the data were processed

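Whole blood RNA of 3 control and 3 CPP-Se Beagles was analysed, 1 library per dog. The authors enriched poly-A mRNA, sequenced paired ends, used HISAT2 2.0.5 to align reads to the Ensembl release 100 dog genome and deposited FPKM and gene lengths (in bases) per gene. The submitters' processing notes also name fastp 0.19.7 and featureCounts 1.5.0-p3. The handling of strand and of overlapping genes is not given in the sources used here. FPKM multiplied by length was a whole multiple of 1 step per library for 100% of values (tolerance 0.1 read), and these multiples were taken as reads.

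The 9847 of 31512 genes whose mean reached 1 FPKM were fitted on log2(FPKM + 1) with limma 3.58.1 in R 4.3.3 (lmFit, eBayes with trend, two-sided, no pairing), with Benjamini-Hochberg adjustment over all of them. The pseudocount lowers fold changes of low genes. DEGs needed a fold of 1.5 or more and an adjusted p under 0.05. Ratios within dogs were compared by exact permutation. Tables and figures were made in Python 3.11.15 (pandas 2.3.3, numpy 2.4.6, matplotlib 3.10.9), and the fits were tested on simulated data. FPKM were given per dog for PSMB5, PSMB6, PSMB7, PSME1, PSME2, any member with an unadjusted p under 0.05 (none met this) and, in each functional group, the members with the highest mean and the largest change. Genes named outside this rule with their values were chosen after the values were seen, and the members and lists were chosen with earlier results of these data known. Precision depends on the 3 dogs per group and the reads per gene, and reads without molecular identifiers are not independent molecules. Alternatives were another pseudocount (0.1) and other filters, 4 other scalings, other variance models, weights per library, a block for the replicate number, limma-voom and a negative binomial model on the reads, and each dog left out. Protein and promoter sequences were not used here.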

Additional observations from a re-analysis of the deposited data

How the results depend on the processing

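The count of 0 members past the DEG thresholds held in all 20 alternatives. Only limma-voom with sample quality weights (156) and the negative binomial model (393) called more than 23 of all genes tested. In the other settings a count of 0 members was close to fixed in advance. Members with an unadjusted p under 0.05 numbered 0 in the main fit and 1 with array weights (PSMD8; 17.9% of all genes tested), 1 with reads outside hemoglobin as library size (PSMB6; 14.0%), 1 with limma-voom (PSMD8; 16.1%) and 2 with limma-voom and sample quality weights (PSMD8 and PSMB6; 20.53%). Leaving out single dogs gave 0 to 3 (9.86% to 16.7% of all genes), with 1 without CPP-Se replicate 2 (PSMD14) and 3 without CPP-Se replicate 3 (PSMD8, PSMB6 and PSMG3). Non-overlapping members numbered 4 in the main fit (23.0% of all genes tested) and 3 with the median of ratios (23.1%). They numbered 7 with reads outside hemoglobin as library size (19.8%), and 5 to 9 with a dog left out (29.7% to 36.3%). Scaling shifted the median of all genes tested to 0.13 (common sum of FPKM), 0.12 (reads on genes) and 0.11 (reads outside hemoglobin), and the members' median from 0.06 to 0.21, 0.21 and 0.19. Relative to all genes, the members' median was 0.09, 0.08 and 0.08, beside 0.07 in the main fit. With array weights the members' median fell to 0.0026 (0.013 relative to all genes), and left-out dogs gave 0.04 to 0.11.

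Fold changes near 0 changed sign. In these same scalings, in that order, PSMA5 was at 0.056, 0.050 and 0.037, PSMB5 at 0.13, 0.13 and 0.11, PSMC5 at 0.10, 0.096 and 0.082, PSME1 at 0.087, 0.079 and 0.063, and PSME4 at 0.015 and 0.0085 in the first pair. PSMB5 was at 0.065 with limma-voom and sample quality weights and at 0.0044 in the negative binomial model, and PSME2 at -0.0066 with limma-voom and sample quality weights. The PSMB9 to PSMB6 difference was 0.0038 on log2(FPKM + 1). With a dog left out, PSMA5 ranged from -0.38 to 0.25, PSMA7 from -0.014 to 0.12, PSMB5 from -0.19 to 0.14, PSMC5 from -0.14 to 0.056, PSMD9 from -0.0071 to 0.47, PSME1 from -0.25 to 0.11, PSME2 from -0.15 to 0.20, PSME4 from -0.24 to 0.043 and the PSMB9 to PSMB6 difference from -0.43 to 0.67. Over all 20 alternatives, signs also changed for PSMB1 (-0.16 to 0.10), PSMB3 (-0.095 to 0.24), PSMA3 (-0.13 to 0.11), PSMA6 (-0.052 to 0.13), PSMC3IP (-0.61 to 0.21), PSMD2 (-0.044 to 0.13), PSMD7 (-0.21 to 0.16), PSMD12 (-0.14 to 0.12), PSME3 (-0.13 to 0.095), PSMG1 (-0.055 to 0.16) and PSMG2 (-0.22 to 0.15). The causes were not tested. The PSMB10 to PSMB7 difference ran from 0.077 (without control replicate 2) to 0.31 (without CPP-Se replicate 3), and was 0.096 without CPP-Se replicate 1 and 0.11 without CPP-Se replicate 2.

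DEGs among all genes tested numbered 3 in the main fit, 0 with a pseudocount of 0.1 or no filter, 12 with a common sum of FPKM, 23 with reads on genes as library size, 1 with limma-voom, 156 with sample quality weights, 393 in the negative binomial model and 0 to 14 with a dog left out. With replicate number as a replicate block, they numbered 1, the members' median was 0.06 and 0 members had an unadjusted p under 0.05. Deviations of same-numbered dogs correlated at 0.016, -0.090 and -0.043. No dog correlated best with the dog of its own number, so the numbers were not taken as pairs. Depth limits the chaperones PSMG1 to PSMG4 (11 to 60 reads per library), PSMD14 and PSMC3IP.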
